A study of Mus musculus with 6 samples.

Results

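Transcripts of 9 genes that mark red blood cells and their precursors were examined in tissue around the newest somites of mouse embryos, with and without the transcription factor Paraxis. The genes were chosen by name: the globin genes Hba-a1, Hba-x, Hbb-bh1 and Hbb-y, and the erythroid genes Alas2, Klf1, Epor, Slc4a1 and Ahsp. They are measured by 10 of the 41174 probes on the array, and all 9 were among the 19354 genes tested. In both genotypes, all 6 measurements of each of the 10 probes stood well above background.

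Haemoglobin is built from α-like and β-like globin chains, each holding a heme group. The first red cells of the mouse arise in the yolk sac as primitive erythroblasts, enter the embryo with the onset of the circulation and use embryonic globin chains beside adult α-globin. Definitive red cells, made later in the fetal liver, use the adult chains. Transcription of the globin, heme and membrane genes in these cells is driven by GATA1, by its partners TAL1 and LMO2, and by KLF1.

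The embryos were of strain C57BL/6J, either wild-type (WT) or Paraxis-/-, and were collected at embryonic day 9.5. Paraxis is the basic helix-loop-helix protein encoded by Tcf15. Neither the extent of the deletion nor the sex of the embryos is given in the labels. The dissected tissue was anterior presomitic mesoderm plus somites I to IV. Each genotype was represented by 3 pools of 5 embryos. A WT pool and a Paraxis-/- pool shared 2 arrays with the dyes exchanged, which gave 3 pairs of pools. The WT pool gives each pair its letter, A, B or C. The labels put Paraxis-/- pool A in pair A, pool C in pair B and pool B in pair C. Pair A lay on slide 1, pairs B and C on slide 2.

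Of the 43379 gene spots on an array, WT signal was well above background at 27080 to 30982, and the number of pairs limits the precision. Tcf15 itself had a log2 ratio of Paraxis-/- over WT of -5.41 (SE 0.09, n = 3 pairs), as a check of the labels. The 10 presomitic and somite markers with a probe were well above background in all measurements. The tissue therefore held both somite transcripts and those of red cells. In such bulk samples, more red cells in a pool and more of a transcript per cell cannot be told apart.

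The probes of the globin genes are shown because related globins are similar in sequence and the results below differ between them. All are 60 bases long and have at least 1 reading frame without a stop codon. The Hba-a1 probe lies on chromosome 11 from 32183775 to 32183956 (plus strand, mm9), a span of 182 bases, which is longer than the probe. The probe of Hba-a2, the paralogue of Hba-a1, starts at 32196744 on the same strand. Capitals mark the longest run that these 2 probes share, 11 bases.
Hba-a1: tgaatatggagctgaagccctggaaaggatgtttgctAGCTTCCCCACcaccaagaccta
Hba-a2: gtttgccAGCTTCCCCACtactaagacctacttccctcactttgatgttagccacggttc
The genes themselves are near-copies of each other, and how much each probe takes up of the other transcript was not tested. Hba-x encodes ζ-globin, the embryonic α-like chain, and its probe runs from 32177668 to 32177727 on the plus strand of chromosome 11.
Hba-x: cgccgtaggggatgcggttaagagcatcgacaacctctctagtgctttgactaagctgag
Hbb-bh1 and Hbb-y encode the embryonic β-like chains βH1 and εy. Their probes lie on the minus strand of chromosome 7. The Hbb-bh1 probes run from 110990307 to 110990366 and from 110990327 to 110990386, so they share 40 bases, in capitals, and are no independent measurements. The Hbb-y probe runs from 111001412 to 111001471.
Hbb-bh1 first probe: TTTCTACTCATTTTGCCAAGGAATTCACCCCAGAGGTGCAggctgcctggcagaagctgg
Hbb-bh1 second probe: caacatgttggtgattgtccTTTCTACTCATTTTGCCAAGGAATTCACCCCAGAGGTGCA
Hbb-y: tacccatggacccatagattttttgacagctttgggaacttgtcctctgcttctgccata
The Hbb-bh1 and Hbb-y probes share no run longer than 7 bases with any other globin gene's probe compared here.

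The mean ratio of all 9 genes was above 0, that is toward higher signal in Paraxis-/- tissue, but none passed the threshold of 0.05 on the limma adjusted p. The adjusted p lay between 0.933 and 0.953, and 0.0207% of all genes tested passed in either direction. The median log2 ratio of the 9 genes was 0.55 (lowest 0.45, highest 0.70), against 0.004 over all genes tested. By pair, this median was 0.67 (A), 1.098 (B) and -0.12 (C). With 1 pair left out it was 0.47 (without A), 0.28 (without B) and 0.79 (without C). Without pair B the mean ratio was 0.28 for Hba-x, 0.37 for Ahsp, 0.26 for Epor and 0.13 for Slc4a1. Klf1 went from 0.28 without pair A to 0.79 without pair C. At an unadjusted limma p under 0.05, 3 of the 9 were higher (Hba-a1, Hba-x and Alas2), against 2.34% of all genes. Hba-a1, Hba-x and Hbb-bh1 were the 3 of 9 with a ratio above 0 in every pair, against 13.5% of all genes. The other 6 genes had a ratio above 0 in pairs A and B and below 0 in pair C, a pattern of 14% of all genes. By the brighter probe, no gene had its lowest Paraxis-/- pool above its highest WT pool (0 of 9, against 3.09% of all genes). With 3 pairs an exact two-sided sign-flip test cannot give a p below 0.25.

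**Figure D1:**
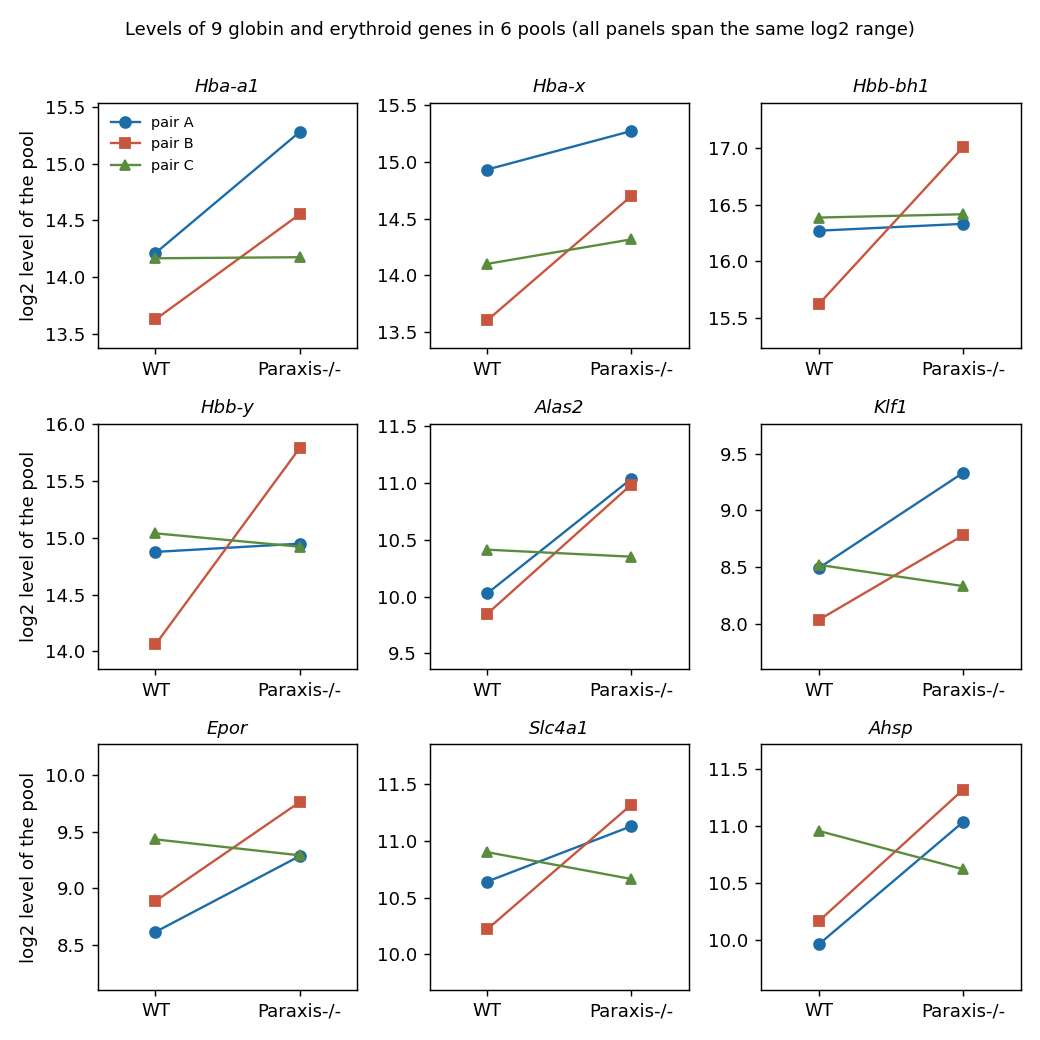
Log2 level of each gene (y axis, each panel spanning the same range) in the WT and Paraxis-/- pools of pairs A, B and C, joined by pair. Each point is the mean of a pool's 2 arrays. The lines of pair B rise in every panel, while those of pair C stay near level, with ratios from -0.34 to 0.22.

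Among the α-like globins, Hba-a1 encodes adult α-globin, which primitive red cells also make. Its log2 level was 14.21, 13.63 and 14.17 in the WT pools of pairs A, B and C and 15.28, 14.55 and 14.17 in the matching Paraxis-/- pools. The Paraxis-/- pool was the higher by about 1 log2 unit in pairs A and B and equal in pair C, so the genotypes overlap at the WT pool of pair A. The mean log2 ratio was 0.67 (SE 0.22, limma adjusted p = 0.933). Its paralogue Hba-a2 is not among the 9 genes but gave the same picture: 1.06, 1.02 and 0.02 in pairs A, B and C.

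Hba-x behaved differently in pair A. Its log2 level was 14.93, 13.60 and 14.10 in the WT pools and 15.27, 14.70 and 14.32 in the Paraxis-/- pools of pairs A, B and C. Both pools of slide 1 lay above the 4 pools of slide 2, and the levels of the genotypes overlapped. Pairs A, B and C gave log2 ratios of 0.34, 1.096 and 0.22 (mean 0.55, SE 0.19, limma adjusted p = 0.933). The value of pair A is poorly fixed, since its 2 arrays gave 0.85 and -0.17. That gap of 1.01 compares with a median gap of 0.24 over all genes in pair A.

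The embryonic β-like globins carried nearly all of their difference in pair B. Hbb-bh1 had log2 levels of 16.27, 15.62 and 16.39 in the WT pools and 16.33, 17.01 and 16.42 in the Paraxis-/- pools. Hbb-y had 14.88, 14.06 and 15.04 in the WT pools and 14.95, 15.79 and 14.92 in the Paraxis-/- pools. For both genes, at the levels given, the WT pool of pair B was the lowest of the 6 and its Paraxis-/- partner the highest. The other 4 pools lay close together. For Hbb-bh1 the place of the slide 1 pools in this order depended on the scaling between arrays and rests in part on saturated spots.

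The log2 ratio of Hbb-bh1 was 0.06, 1.38 and 0.03 in pairs A, B and C (mean 0.49, SE 0.29, limma adjusted p = 0.95). That of Hbb-y was 0.07, 1.73 and -0.12 (mean 0.56, SE 0.38, limma adjusted p = 0.953). Without pair B the mean ratio of Hbb-bh1 was 0.045 and that of Hbb-y was -0.022. The 2 arrays of a pair disagreed for Hbb-bh1, with 0.96 and 1.80 for pair B and -0.34 and 0.39 for pair C. Those of Hbb-y in pair B gave 1.87 and 1.59.

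Saturation touched only Hbb-bh1 among the 9 genes. Its spots were saturated in 1 of the 6 WT and 2 of the 6 Paraxis-/- measurements, all on slide 1, and both probes alike. The ratio of pair A is therefore set in part by spots whose true brightness has only a lower bound. With saturated spots left out, pair A gave no value and the mean ratio was 0.71. The levels of Hbb-bh1 on slide 1 also depended on the scaling. Relative to the mean of the 6 pools, the WT pool of pair A was at -0.58 and the Paraxis-/- pool at -0.52 on the log2 scale without the scaling between arrays. Hbb-y had no saturated spot, and its ratio in pair A was as close to 0. The dimmer Hbb-bh1 probe had ratios of 0.07, 1.40 and 0.03. Its highest WT pool, that of pair A, rests in part on a saturated spot, so the order of its pools is not known.

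**Figure D2:**
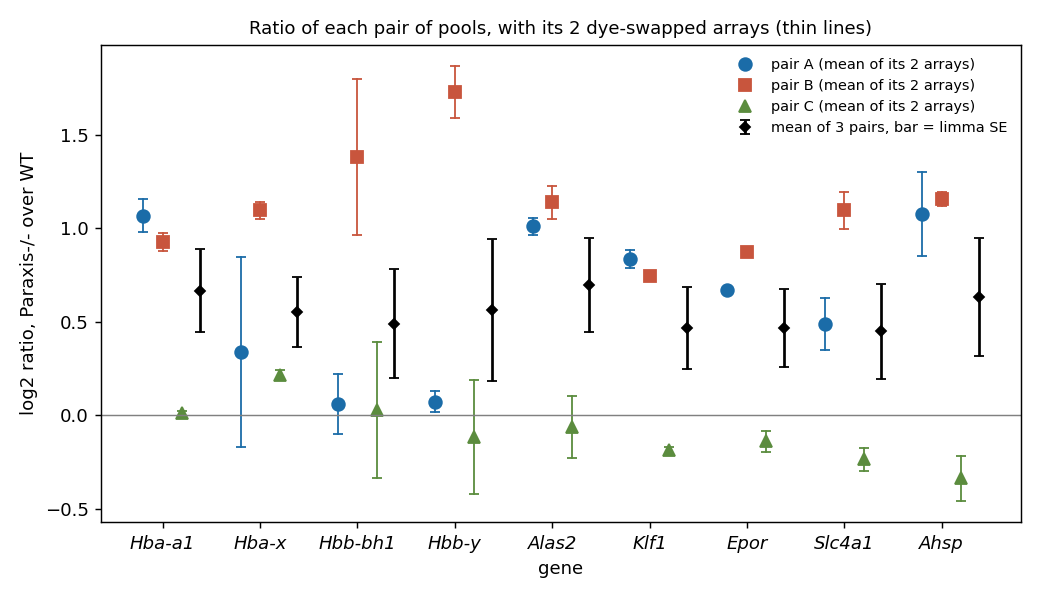
Log2 ratio of Paraxis-/- over WT (y axis) for each gene (x axis). Coloured symbols are the 3 pairs, thin bars join the 2 dye-swapped arrays of a pair, and black diamonds are the mean of 3 pairs with the limma SE. Hbb-bh1 and Hbb-y lie near 0 in pair A, at 0.06 and 0.07, where Hba-a1, Alas2 and Ahsp lie at 1.07, 1.01 and 1.08.

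All 5 erythroid genes outside the globin loci had ratios above 0 in pairs A and B and below 0 in pair C. Alas2, on the X chromosome, encodes the erythroid enzyme that starts heme synthesis. Its log2 level was 10.03, 9.85 and 10.41 in the WT pools of pairs A, B and C, and 11.04, 10.99 and 10.35 in the Paraxis-/- pools. The Paraxis-/- pools of pairs A and B were the highest, and that of pair C lay below its WT pool. The log2 ratio was 1.01, 1.14 and -0.06 (mean 0.70, SE 0.25, limma adjusted p = 0.947).

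Ahsp encodes the chaperone that keeps free α-globin soluble. It had log2 levels of 9.96, 10.16 and 10.96 in the WT pools and 11.03, 11.32 and 10.62 in the Paraxis-/- pools. The WT pool of pair C was nearly as high as the highest pools, and the log2 ratio was 1.08, 1.16 and -0.34 (mean 0.63, SE 0.32, limma adjusted p = 0.95). It had the lowest ratio of the 9 genes in pair C and the highest in pair A.

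Klf1, the erythroid Krüppel-like factor that activates β-globin transcription, had log2 levels of 8.49, 8.04 and 8.52 in the WT pools and 9.33, 8.78 and 8.33 in the Paraxis-/- pools. Epor, the receptor for erythropoietin, had 8.62, 8.89 and 9.43 in WT and 9.28, 9.76 and 9.29 in Paraxis-/- pools. Slc4a1, the anion exchanger of the red cell membrane (band 3), had 10.64, 10.22 and 10.90 in WT and 11.13, 11.32 and 10.67 in Paraxis-/- pools. In all 3 genes the Paraxis-/- pool of pair C lay below its WT pool, and the genotypes overlapped. The ratios of pairs A and B were close for Klf1 (0.84 and 0.74), whereas Slc4a1 had 0.49 in pair A and 1.098 in pair B. The mean log2 ratios were 0.46 for Klf1 (SE 0.22), 0.47 for Epor (SE 0.21) and 0.45 for Slc4a1 (SE 0.25). The 2 arrays of a pair agreed closely for Epor, at 0.65 and 0.69 for A, 0.88 and 0.86 for B and -0.08 and -0.20 for C.

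Pools of 1 genotype also differed from each other. On slide 2 the WT pool of pair C exceeded the WT pool of pair B for all 9 genes, by 0.48 (Klf1) to 0.98 (Hbb-y) on the log2 scale, with a median of 0.57. The median of this difference over all genes was 0.02, and 80 genes, or 0.414% of those tested, differed by at least as much as Klf1 in that direction. The Paraxis-/- pool of pair B exceeded that of pair C for all 9 genes too, by 0.38 (Hba-a1) to 0.87 (Hbb-y), with a median of 0.59. Of all genes tested, 5.74% differed by at least as much as Hba-a1 in that direction. For Hba-a1, Hba-x and Alas2 both of these slide 2 differences were smaller than the mean ratio between genotypes. With slide 1 included, this did not hold for Hba-x and Hba-a1. Levels of Hba-x ran from 13.60 to 14.93 in the WT pools, and those of Hba-a1 from 14.17 to 15.28 in the Paraxis-/- pools. These pools were compared between arrays, so these differences lack the direct comparison that pools of a pair have.

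After subtraction of the mean of the pools on each slide, the 9 genes had a mean log2 level of -0.58 in the WT and 0.54 in the Paraxis-/- pool of pair B. The WT pool of pair C was at 0.07 and its Paraxis-/- partner at -0.03. On slide 2 the order was thus the Paraxis-/- pool of pair B, the WT pool of pair C, the Paraxis-/- pool of pair C and the WT pool of pair B. The middle pools of that order lay close together, and which of them was the higher varied from gene to gene. On slide 1 the values were -0.31 in WT and 0.31 in Paraxis-/-. Pearson's r between any 2 of the 9 genes over these 6 centred levels ran from 0.68 to 0.995, with a median of 0.92. The pools share arrays and slides, and centring makes the 2 values of slide 1 mirror images. Hence r does not rest on 6 free values. The median r of all genes with the mean of the 9 was 0.06, and 9.69% of genes tested had an r with that mean of at least 0.68. The 0.68 is an r between single genes, so this share is no like comparison.

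**Figure D3:**
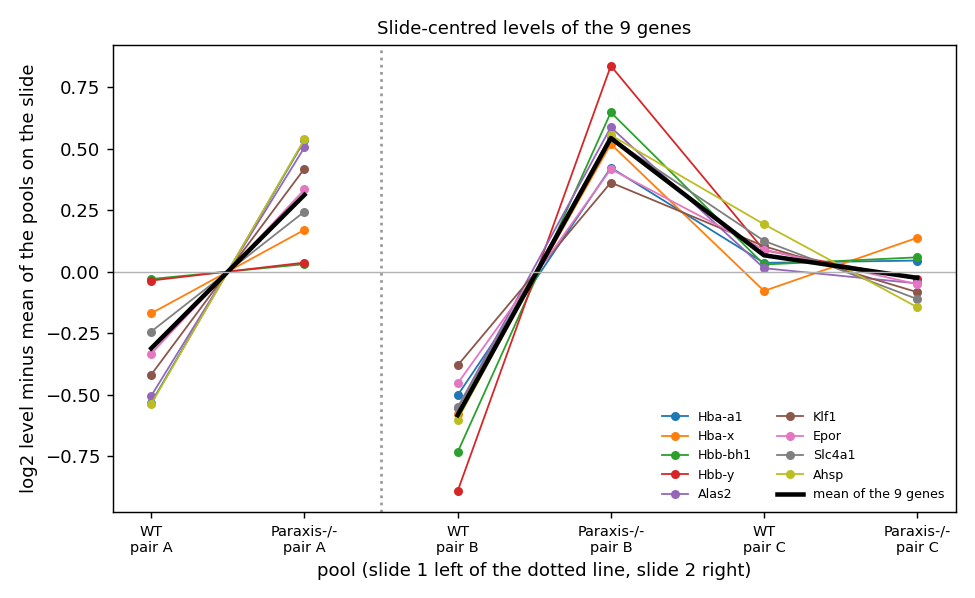
Log2 level of each of the 9 genes minus the mean of the pools on the same slide (y axis) in each of the 6 pools (x axis), with the mean of the 9 genes in black. Within slide 2 the widest distance is that between the pools of pair B, from -0.58 to 0.54 for the mean.

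Markers carried on the sex chromosomes differed between pools of slide 2 as well. They were added after the data were seen, because Alas2 is X-linked and Kdm5d was among the genes with the most similar pattern. Xist, the RNA of the inactive X chromosome, had log2 levels of 13.80 and 12.69 in the WT pools of pairs B and C and 11.40 and 13.62 in the matching Paraxis-/- pools. Its ratio was -2.40 for B, 0.92 for C and -0.08 for A. The Y-linked genes Eif2s3y and Ddx3y, a translation factor subunit and an RNA helicase, ran the other way. Eif2s3y had ratios of 0.22, 2.24 and -1.10 in pairs A, B and C, and Ddx3y had -0.22, 1.72 and -0.94. In pair B the Paraxis-/- pool had both more Y-linked signal and higher levels of all 9 genes. In pair C the WT pool had more Y-linked signal, and it had the higher level for 6 of the 9 genes, while Hba-a1, Hba-x and Hbb-bh1 were higher in the Paraxis-/- pool (ratios of 0.009, 0.22 and 0.03). In pair A, where ratios of these markers lay between -0.22 and 0.22, the median ratio of the 9 genes was 0.67. The part of sex composition in the result was not tested.

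The adult β-globin gene that has probes here did not follow the others. The files name it Hbb-b1, which the gene listing updates to Hbb-bt, and it has 4 probes on the minus strand of chromosome 7. The adult β-globin genes Hbb-bs and Hbb-b2 had no probe under these names. How much the Hbb-bt probes take up of other adult β-globin transcripts was not tested. The probe used had log2 levels of 11.01, 13.49 and 13.48 in the WT pools of pairs A, B and C and 15.73, 13.48 and 13.45 in the Paraxis-/- pools. By this probe the 4 pools of slide 2 spanned 0.036 on the log2 scale, a span that 0.9% of all genes undercut. By the other 3 probes they spanned 0.07, 0.17 and 0.18, which 6.2%, 39.2% and 44.3% of all genes undercut. Over the same pools Hba-a1 spanned 0.93 and Hbb-y 1.73.
Hbb-bt probe used: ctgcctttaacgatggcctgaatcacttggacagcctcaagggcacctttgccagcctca
On slide 1 the Paraxis-/- pool exceeded the WT pool by 4.72 by this probe and by 2.68 to 3.76 by the other 3 probes. The probe used had 1 saturated Paraxis-/- measurement and the others none. In pairs B and C the ratios of all 4 probes lay between -0.18 and 0.13. The mean log2 ratio was 1.56 (SE 1.01, limma adjusted p = 0.95). It was -0.02 without pair A. The WT pool of pair A was the lowest of the 6 pools by all 4 probes and the Paraxis-/- pool of pair A the highest. The probe used shares a run of 29 bases with another of the 4, so these 2 are no independent measurements. In the fit with slide as a block Hbb-bt passed the threshold with a ratio of 2.35, but slide 1 holds only pair A there, and the spread comes from pairs B and C alone.

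**Figure D4:**
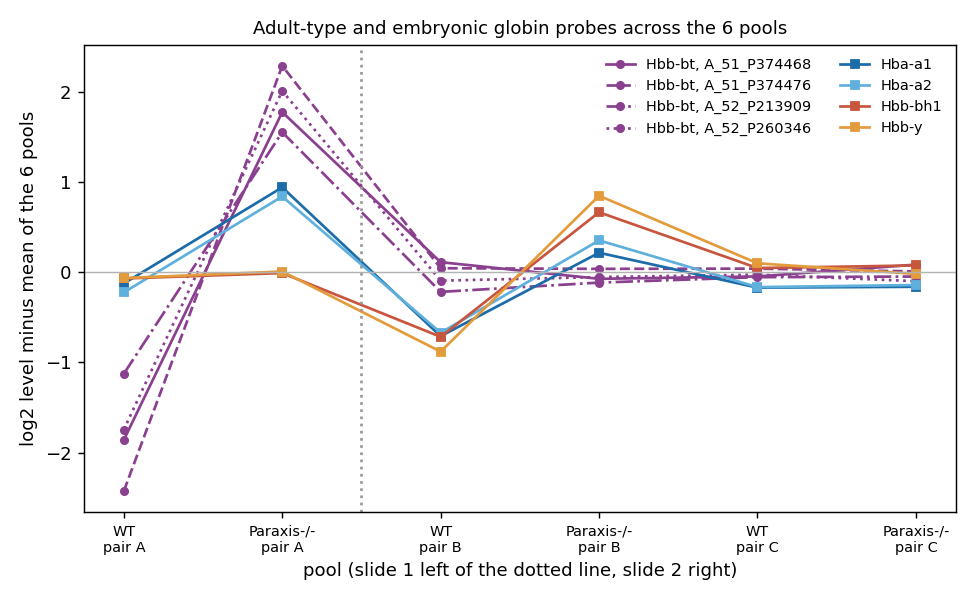
Log2 level minus the mean of the 6 pools (y axis) for 4 adult β-globin probes (Hbb-bt) and for Hba-a1, Hba-a2, Hbb-bh1 and Hbb-y in each pool (x axis). The Hbb-bt probes move apart on slide 1 and stay near level on slide 2, where the other globins separate the pools of pair B.

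Other genes of the red cell pathway were counted in lists chosen by function. No gene of any list passed the threshold in the fit to pair ratios, where 0.0207% of all genes did, so the lists are described by their medians beside the 0.004 of all genes. Some passed in other fits: Etv2 in 5 of 20 alternatives, Tal1 and Uncx in 2 each, with and without a replicate block on 6 single arrays, and Rbp4 in 1, with slide as a block. The 2 arrays of a pair measure the same pools, so the fits on single arrays add technical replicates and no further pools. Among 16 erythroid transcription factors the median log2 ratio was 0.08, and 10 ratios were above 0. Tal1, which encodes the basic helix-loop-helix partner of GATA1, had log2 levels of 9.63, 9.41 and 9.78 in WT and 10.46, 10.42 and 10.32 in Paraxis-/- pools. The genotypes did not overlap for Tal1, as for the 3.09% of all genes whose lowest Paraxis-/- pool lay above their highest WT pool. Its ratio was above 0 in all 3 pairs (0.84, 1.01 and 0.54, mean 0.80, SE 0.11, limma adjusted p = 0.367), as in 13.5% of all genes. Unlike the 6 genes with a negative value, Tal1 kept a ratio above 0 in pair C. Gata2, the GATA factor of blood progenitors, had a mean ratio of 0.39 (SE 0.09), and Ldb1, the adaptor that joins these factors to distant enhancers, had -0.29 (SE 0.07). Gata1 itself had 0.19, 0.16 and -0.14 in pairs A, B and C.

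Among 13 genes of heme synthesis and mitochondrial heme transport the median was 0.03. Urod, the enzyme uroporphyrinogen decarboxylase, had 0.30, 0.29 and 0.38 in pairs A, B and C (mean 0.33, SE 0.07, limma adjusted p = 0.636). Fech, whose enzyme inserts iron to form heme, had a mean of 0.23 (SE 0.12), and Slc25a37, the mitochondrial iron importer, 0.14 (SE 0.08). Alas2 is the erythroid isoform, and its ratio of 1.01 in pair A compares with a median of 0.14 for these 13 genes in that pair. The 12 genes of iron uptake and storage had a median of 0.002, with Ncoa4, the ferritin receptor of autophagy, at 0.13, Pcbp1, an iron chaperone, at -0.10 and Hmox1, which breaks down heme, at -0.51. The value of Hmox1 came from pair C, at -1.78.

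The 18 tested genes of the red cell membrane and its cytoskeleton had a median of 0.11, with pair medians of 0.18, 0.20 and -0.05. Among them Xk was well above background in at most 3 of 6 WT and 5 of 6 Paraxis-/- measurements and was tested only through the latter. Kel, a blood group endopeptidase, had 0.41, 0.70 and 0.14 (mean 0.42, SE 0.12), and Tmod1, which caps actin filaments, had a mean of 0.26 (SE 0.11). The 12 genes of erythropoietin and kit signalling had a median of 0.06, with Kit, the stem cell factor receptor, at 0.24, the kinase gene Jak2 at 0.18 and the feedback inhibitor gene Socs3 at -0.38. The 16 genes of red cell enzymes and maturation had a median of 0.10, with Cat (catalase) at 0.21, Gfi1b, a zinc-finger repressor, at 0.37 and Blvrb, a biliverdin reductase, at 0.43. The last 2 genes had ratios above 0 in pairs A and B and below 0 in pair C. Among the 6 other globins tested, including Hba-a2 and Hbb-bt, the θ-globin gene Hbq1a, well above background in 4 of 6 WT measurements, had 0.20, 0.30 and -0.07.

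Markers of other cells that the dissected tissue could hold were given the same treatment, with each list's summed level as the log2 of the sum over its tested genes. The visceral yolk sac endoderm list held 10 tested genes of 12, with a median log2 ratio of 0.26. Among the 10, Apoa1 was well above background in 0 of 6 WT and 5 of 6 Paraxis-/- measurements and was tested only through the latter. The summed level ran from 10.91 to 12.06 in WT and from 12.25 to 12.57 in Paraxis-/- pools, with no overlap. Its lowest value, 10.91, was that of the WT pool of pair A. Of single genes tested, 3.09% had their lowest Paraxis-/- pool above their highest WT pool. No such share was computed for the summed level of a list. Such a sum gives most weight to bright genes. Rbp4 alone ran from 9.26 to 10.62 in WT and from 10.68 to 11.18 in Paraxis-/- pools. The lack of overlap in the sum therefore need not hold for the other genes of the list. The list's pair medians were 0.62, 0.12 and 0.05, and its markers Ttr and Slc39a5 were not well above background in any measurement. Rbp4, a retinol carrier, had 1.42, 0.65 and 0.56, and the lipid carrier genes Apob and Apom had means of 0.38 and 0.32, with Apob well above background in 5 of 6 WT measurements. Afp, α-fetoprotein, is named here although the naming rule did not take it, and was picked after its values were seen. It had 4.34, 1.58 and -0.20 and was lowest in the WT pool of pair A, at 6.44, as was Hbb-bt. It was well above background in 4 of 6 WT measurements. The part of yolk sac tissue in the result was not tested.

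The white cell list had 7 tested genes of 13, with a summed level of 10.14 to 10.27 in WT and 10.31 to 10.45 in Paraxis-/- pools. Its defining markers Fcgr1, Adgre1 and Mrc1 were not well above background in any measurement, and Ptprc was so in 1 of 6 of each genotype. Lyz2, lysozyme, had 1.28, 0.89 and 0.09, Tyrobp, a signalling adaptor, had a mean of 0.21, and Cd68, a lysosomal protein, had 0.09. Tyrobp was well above background in 1 of 6 WT and 5 of 6 Paraxis-/- measurements. It was tested only through the latter and is part of the summed level. The endothelial list, 15 tested of 17, overlapped between genotypes (14.36 to 14.59 in WT, 14.30 to 14.70 in Paraxis-/-). Its median ratio was -0.04, with 9 of 15 ratios below 0, among them Cldn5, a tight junction protein of vessels (-0.54), and Cdh5, VE-cadherin (-0.16), both picked after their values were seen. Its members Etv2, which specifies blood and vessel progenitors, Sox17 and the VEGF receptor gene Kdr had means of 1.54, 0.29 and 0.44, each above 0 in all 3 pairs. The megakaryocyte and platelet list, 8 tested of 11, overlapped as well (10.65 to 10.93 in WT, 10.56 to 10.99 in Paraxis-/-), with the integrin gene Itgb3 at 0.26, Gp9 at 0.08 and Pf4 at -0.24. The presomitic and somite list, 10 tested of 12, overlapped too (15.57 to 15.66 in WT, 15.42 to 16.03 in Paraxis-/-), with Uncx at -0.78, Pax3 at -0.49 and Lfng at 0.23. Markers of the posterior presomitic mesoderm, picked after their values were seen, stood apart in pair A. Tbx6 had log2 levels of 10.03, 12.69 and 12.68 in the WT pools and 12.46, 12.10 and 12.90 in the Paraxis-/- pools of pairs A, B and C, and the Notch ligand genes Dll3 and Dll1 had ratios of 1.62 and 0.66 in pair A. The low WT pool of pair A is the one in which Afp and Hbb-bt were lowest too. The part of these cells in the result was not tested.

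Genes outside all lists were ranked by how closely their slide-centred levels followed the mean of the 9 genes over the 6 pools, as the root mean square difference in log2 units. The closest was Krt15, a keratin of stratified epithelia (0.07), then Hemgn, a nuclear protein of blood-forming cells (0.11), Ncf4, a subunit of the phagocyte oxidase (0.12), and Npsr1, a neuropeptide receptor (0.13). Uba7, the enzyme that activates ISG15 (0.16), Kdm5d, a Y-linked histone demethylase (0.17), Ddit4, a stress-induced inhibitor of mTOR (0.18), and Slc32a1, the vesicular transporter of GABA (0.18), followed. Krt15 had ratios of 0.65, 1.01 and -0.26 in pairs A, B and C, and Hemgn had 0.49, 0.84 and -0.27. These are descriptions over 6 pools that share arrays.

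The promoters of genes that moved together were searched for the letters bound by erythroid factors. RefSeq's promoter table (GRCm38.p6) held 6 of the 9 genes: Hba-a1, Hba-x, Hbb-y, Alas2, Klf1 and Epor. The 250 bases before the start were searched on both strands for a GATA motif and for CACCC, the core of KLF1 sites. The GATA motif was searched as AGATAA, further as AGATAG, likewise as TGATAA, and finally as TGATAG. The GATA forms share letters but overlaps were counted once per position. All 6 promoters held both motifs, each alone being in 26.5% (GATA) and 52.0% (CACCC) of the 32851 promoters of the table, and both together in 11.8%. CCAAT was in 3 of the 6 (33.8% of all promoters) and TATAA in 3 (22.8%). The last 190 bases before the start are shown for a gene of each role, with GATA and CACCC letters in capitals, also where they read on the opposite strand.
Hba-x: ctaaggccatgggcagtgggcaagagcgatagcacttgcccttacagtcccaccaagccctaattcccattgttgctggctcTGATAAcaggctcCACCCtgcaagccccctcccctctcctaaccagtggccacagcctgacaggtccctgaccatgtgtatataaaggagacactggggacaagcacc
Hba-a1: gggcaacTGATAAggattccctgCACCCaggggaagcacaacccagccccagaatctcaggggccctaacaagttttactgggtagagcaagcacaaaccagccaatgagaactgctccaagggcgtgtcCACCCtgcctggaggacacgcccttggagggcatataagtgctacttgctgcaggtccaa
Hbb-y: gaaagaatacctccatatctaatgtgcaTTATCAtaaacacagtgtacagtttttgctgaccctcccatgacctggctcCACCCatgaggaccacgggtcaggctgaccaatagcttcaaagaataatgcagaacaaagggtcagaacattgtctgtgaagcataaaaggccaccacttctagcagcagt
Alas2: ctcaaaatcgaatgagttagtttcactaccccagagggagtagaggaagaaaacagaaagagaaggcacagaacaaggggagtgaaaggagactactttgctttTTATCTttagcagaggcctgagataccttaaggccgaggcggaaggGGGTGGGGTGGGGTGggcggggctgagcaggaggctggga
In GRCm38.p6 these are chr11:32276410-32276599 (plus strand), chr11:32283482-32283671 (plus strand), chr7:103853208-103853397 (minus strand) and chrX:150547227-150547416 (plus strand). In Alas2, the 3 CACCC matches follow each other directly. Hbb-y, with its ratio near 0 in pair A, and Hba-a1 and Alas2, with ratios of 1.07 and 1.01 there, all hold both motifs. A match of letters is a description of the sequence and shows no binding.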

How the data were processed

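The data are 6 two-colour Agilent arrays. Spot intensity was deposited as read by Agilent Feature Extraction, version 10.7.3.1 (slide 1) and 10.5.1.1 (slide 2), per the file headers. Version 8.5.1.1 stands in the submitters' processing notes. The deposited series matrix holds log10 ratios of Cy5 over Cy3, within 5e-11 of those in the scanner files, with a median of 0. Median spot and local background intensities (slide 2 holds medians only) went through normexp (offset 50) and then loess within arrays, using limma 3.58.1, R 4.3.3 and data.table version 1.17.8. Control and outlier spots were left out. Ratios were turned to Paraxis-/- over WT and averaged over the 2 arrays of a pair. Probes well above background in at least 4 of 6 measurements of a genotype were kept (28639 of 41174), and each gene took its brightest probe. The 19354 genes with at least 2 pairs (73 with fewer than 3) entered a two-sided limma test of the pair ratios against 0 (lmFit, eBayes), Benjamini-Hochberg adjusted, threshold 0.05. The fit was tested on simulated data. Levels are log2 intensities after loess and Aquantile, averaged over a pool's 2 arrays.

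For 2 arrays the title and the description name different pools, and the title was followed. Deviations from the mean of the dye orientation correlated across genes at r of 0.42, 0.63 and 0.64 for arrays of the same pair, and between -0.44 and -0.12 otherwise. With so few arrays, subtracting their mean itself pushes r between pairs below 0. The ratios themselves correlated at r of 0.37, 0.23 and 0.53 within pairs, and between -0.14 and 0.07 otherwise. Gene names were updated through a RefSeq listing (26690 probes by accession). Positions of probes are mm9, and exons were not annotated here. The genes and lists were chosen with earlier results of these data known. Named beside the 9 genes were up to 3 genes of each list with the smallest p, the 8 nearest in pattern, and Tcf15. Genes with only a clone or accession name were counted, not named. A gene that the rule took is not reported here. The alternatives covered background, normalization, filters, dye orientation, blocks, pairing and each pair left out.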

Additional observations from a re-analysis of the deposited data

How the results depend on the processing

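None of the 9 genes passed the threshold in any of the 20 alternatives run, and their median ratio stayed above 0 in each. That median, 0.55 as reported, was 0.28 without pair B, where Slc4a1 was at 0.13 and Epor at 0.26, and 0.79 without pair C. Each gene's ratio was above 0 throughout, except Hbb-y without pair B (-0.022, and up to 0.90 without another pair). At an unadjusted limma p under 0.05, 7 of the 9 were higher without pair C, 1 without pair A and 0 without pair B. The share of all genes at that p was not counted in the alternatives, so these counts have no background to be read against. With arrays paired as in the descriptions the count was 9 of the 9. That pairing averages an array of pair B with an array of pair C, which evens out the difference between these pairs. The ratios of arrays joined in this way correlated at r of -0.14 and -0.07, against 0.23 and 0.53 for arrays paired by title. The count of 9 therefore carries no weight. The number of genes past the threshold, 4 as reported, was 7 with background subtracted to a floor, 18 with scale normalization between arrays, 19 on arrays with WT in Cy5 only, 2 with Paraxis-/- in Cy5 only, 76 with slide as a block, 2 on slide 2 alone and 0 to 2 with 1 pair left out. On 6 single arrays it was 66 with the replicate block and 91 without it, and no call among the 9 genes changed, while Etv2, Tal1 and Uncx passed in both. Without the block, the 2 arrays of a pair count as independent although they measure the same pools. Log2 ratios changed sign for Pcbp1 (0.021 with median centring, 0.034 with WT in Cy5 only), Slc25a37 (-0.039 with the mean of probes, -0.026 with Paraxis-/- in Cy5 only), Cd68 (-0.023) and Ncoa4 (-0.024, both with Paraxis-/- in Cy5 only), Hbb-bt (-0.019 with saturated spots left out and on slide 2 alone) and Pf4 (0.44 on slide 2 alone). With 1 pair left out at a time, the ratio ran from -0.019 to 2.36 for Hbb-bt, from -0.72 to 0.44 for Pf4, from -0.012 to 0.18 for Gp9, from -0.080 to 0.67 for Kdm5d and from -0.90 to 0.13 for Hmox1. Several list medians moved. That of the red cell membrane list was 0.26 with background subtracted to a floor and 0.33 with Agilent processed signals, that of the other globins 0.34 and 0.46, and that of the yolk sac list 0.65 with the floor. The cause was not tested. Probes near background limit small ratios, and saturation limits Hbb-bh1 and Hbb-bt in pair A.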
